A study of Mus musculus with 4 samples.

Results

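The major histocompatibility complex of the mouse, the H2 complex on chromosome 17, was examined in ChIP-Seq of histone H4 acetylated at lysine 16 (H4K16ac) in liver. An island is a stretch of sequence that the peak caller called enriched for H4K16ac over the input chromatin of the same mouse. Every island of either list that overlapped chr17 between 33.4 and 38.0 Mb, in the coordinates of the lists, was taken as a member. This gave 71 islands in MT and 65 in WT, or 136 of the 54604 islands in both lists (28377 in MT and 26227 in WT). No island crossed an edge of the window, which is 4.6 Mb long. The 5 Mb on the centromeric side (proximal flank) and the 5 Mb on the telomeric side (distal flank) served as the comparison.

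MT was a 3-month-old Sirt1 KO mouse and WT a 3-month-old wild-type mouse, both on a mixed genetic background of 129, FVB and Black Swiss. Sirt1 encodes an NAD-dependent deacetylase that removes acetyl groups from histones, H4K16 among them. Livers were taken in the morning, snap frozen and used for an H4K16ac ChIP library and an input library per mouse. Liver tissue was used whole, so hepatocytes and the resident immune and endothelial cells all contributed chromatin. The Sirt1 deletion was not checked in these lists. Summed over its islands, the MT list had 2916128 reads from ChIP and 1347113 from input, and the WT list 2264125 and 984817. Each genotype therefore had 1 ChIP and 1 input library, no replicate error could be estimated, and no test between genotypes was made. Intervals are 95% intervals for counting error only, exact Poisson for counts and their ratios, Clopper-Pearson for shares, order statistics for medians, and a normal approximation on the log scale where more than 2 counts enter. They treat islands or reads as independent, and they say nothing on the spread between mice.

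The complex is among the most gene-dense stretches of the mouse genome. Its class I genes (H2-K1, H2-D1 and relatives) encode the surface proteins that show peptides from inside the cell to cytotoxic T cells, and nearly all cells use them. Its class II genes (H2-Aa, H2-Ab1, H2-Eb1) encode the proteins with which dendritic cells, macrophages and B cells show peptides to helper T cells, while H2-DMa and the H2-DMb genes help to load them. Tap1, Tap2, Psmb8 and Psmb9 make and transport the peptides. The class III genes include C2, Cfb, C4a and C4b, complement factors that the liver secretes, and Tnf, Lta and Ltb, which encode inflammatory cytokines. Acetylation of H4K16 loosens the packing of nucleosomes and is found in active chromatin.

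A list of 38 of these genes and their neighbours in 5 groups (class I, class II, antigen processing, class III and neighbours) was matched by symbol to RefSeq annotation of GRCm38.p6, and all 38 were found. In that order, from the centromeric side, Daxx, Tapbp and H2-K1 come first, followed by Ring1, Rxrb, H2-Oa and Brd2, then the remaining class II genes with Psmb9, Tap1, Psmb8 and Tap2 among them. The class III genes follow, from Notch4 to Ddx39b, and H2-D1 and Pou5f1 come last. In all, 99 protein-coding genes lie between Daxx and Pou5f1, 18 of them with H2 symbols. The processing notes of the submitters name mm8 as the build, and no annotation of that build was used here. No island was therefore assigned to a gene, and no sequence is shown. The bounds of the window were not checked against that build, nor was it checked which genes of the complex the window holds. Below, the complex means this window.

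Islands were dense in the proximal and middle parts of the complex and ended before its distal part. The complex held 15.4 islands per Mb in MT (12.1 to 19.5) and 14.1 in WT (10.9 to 18.0). The proximal flank held 95 islands in MT and 94 in WT, which is 19.0 per Mb (15.4 to 23.2) and 18.8 per Mb (15.2 to 23.0). The distal flank held only 8 in MT and 9 in WT, or 1.6 per Mb (0.69 to 3.15) and 1.8 per Mb (0.82 to 3.42). Island density in the complex was thus 0.81 times that of the proximal flank in MT (0.59 to 1.12) and 0.75 times in WT (0.54 to 1.04), intervals that include 1. Against the distal flank it was 9.65 times as high in MT (4.64 to 23.2) and 7.85 times in WT (3.89 to 17.9). Against both flanks together the ratio was 1.499 in MT (1.09 to 2.05) and 1.37 in WT (0.99 to 1.89), a mean over a dense and a nearly empty flank. The direction of the pooled comparison depended on the flank: with 10 Mb on each side the ratios were 0.83 in MT and 0.78 in WT.

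Islands covered 195.8 kb of the complex in MT and 152.0 kb in WT, or 4.26% and 3.30% of its sequence. The corresponding shares were 6.40% and 4.99% in the proximal flank and 0.292% and 0.304% in the distal flank. Among 558 windows of 4.6 Mb laid end to end over the genome, 145 held more islands than the complex in MT and 146 in WT, where the medians were 43 and 41.5 islands. In both genotypes about the same number of windows was denser than the complex, 26.0% of them in MT and 26.2% in WT.

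**Figure D1:**
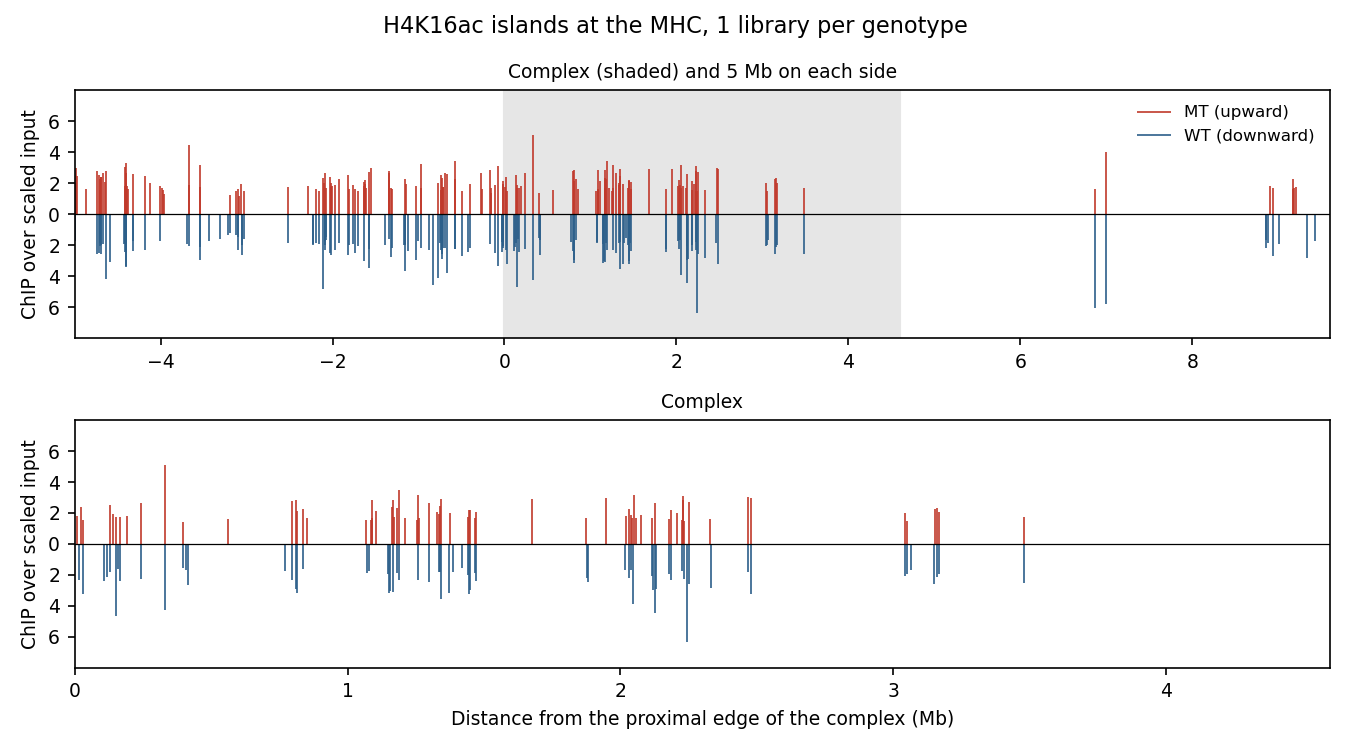
Islands of MT (upward, red) and WT (downward, blue) by distance from the proximal edge of the complex in Mb; the height of each line is ChIP over scaled input. The upper panel shows the complex (shaded) and 5 Mb on each side, and the lower panel the complex alone, where no island of either list lies in the last 1119 kb.

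Along the complex the islands lay in groups separated by empty stretches. When islands of both lists were merged wherever they overlapped by at least 1 bp, 86 regions resulted. Cutting these at gaps of more than 200 kb, a distance chosen after the positions were seen, gave 6 groups. The first ran from 33409801 to 33964000 and held 18 regions, and the second, of 81.2 kb, ran from 34172001 to 34253200 with 6 regions and was the most densely covered of the groups with several regions, 17.5% in MT and 14.8% in WT. The group from 34464601 to 34872200 held 30 regions, with 16.98% of its 407.6 kb under MT islands and 11.5% under WT islands. The longest group, from 35077201 to 35880400, held 25 regions over 803.2 kb, with 7.84% covered in MT and 5.90% in WT. A group of 6 regions followed at 36443201 to 36568800, and a lone region at 36877201 to 36881000 was the most distal of the complex.

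The most distal empty stretch began at 36881001 and ran to 40270200, over 3389.2 kb, of which 1119 kb lay in the complex. It was among the 3 longest of the 1457 stretches without an island on chromosome 17. The next longest within the complex were 562.8 kb from 35880401 and 308.4 kb from 36568801. Neighbouring regions of the complex were separated by a median of 8.0 kb, against 14.9 kb in the proximal flank and 37.2 kb in the distal flank. The median gap was thus smaller in the complex, but the lower quartile was larger, 3.2 kb against 2.4 kb in the proximal flank. The complex as a whole was no denser than its proximal flank.

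In 23 bins of 200 kb, 8 held no island of either list, and these included the last 5. MT islands covered more sequence than WT islands in 11 bins and WT islands more in 4. The most covered bin, from 35.4 to 35.6 Mb, had 41.2 kb under 11 islands in MT and 23.2 kb under 10 islands in WT. The bin from 34.4 to 34.6 Mb followed with 29.2 kb in MT and 17.4 kb in WT, and the next bin, from 34.6 to 34.8 Mb, with 26.0 and 16.2 kb. These 3 bins held most of the additional covered sequence of MT. In the bin from 36.4 to 36.6 Mb, in contrast, 13.6 kb were covered in MT and 14.4 kb in WT.

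**Figure D2:**
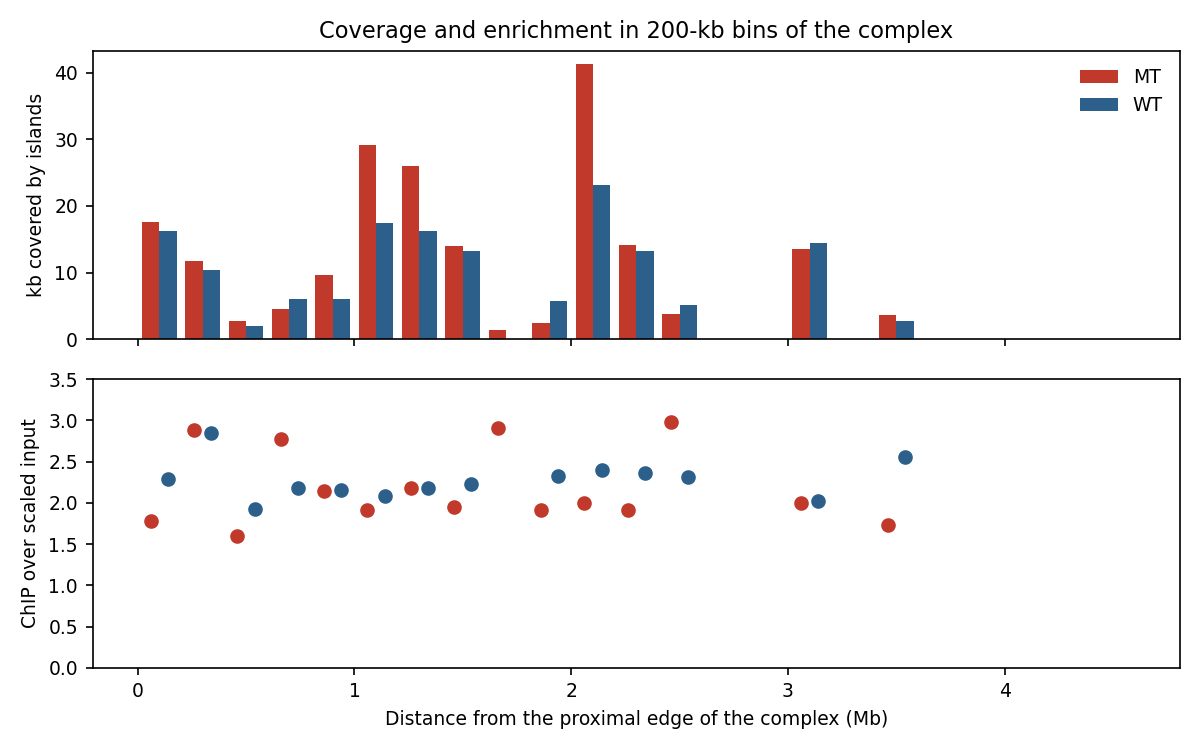
Kilobases covered by islands (upper panel, bars) and pooled ChIP over scaled input (lower panel, points) in 200-kb bins of the complex, by distance from its proximal edge in Mb, for MT (red) and WT (blue), 1 library per genotype. Coverage peaked at 41.2 kb in MT and 23.2 kb in WT in the same bin, and the last 5 bins held no island, so no enrichment is plotted there.

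More sequence was covered in MT, and the excess in covered length was larger than that in island number. The number of islands in MT was 1.09 times that in WT (0.77 to 1.55), and the covered length was 1.29 times that in WT (0.91 to 1.83), intervals that include 1. The interval of covered length is that of island number carried over to the length ratio, and it leaves out the spread of island lengths. Among islands with a fold of at least 2 the ratios were 0.90 and 1.004, and with false discovery rates up to 1e-05 they were 0.92 and 1.13. Among islands with at least 50 ChIP reads they were 1.33 and 1.43, so the excess of MT depended on how islands were selected. The fold was lower in MT to begin with, and 52.1% of MT islands and 63.1% of WT islands reached 2. The covered length was also larger in MT in both flanks together (1.26 times) and in the whole lists (1.25 times), so the complex followed the genome in this respect. Of 305 windows of the genome with at least 20 shared regions, 137 had a larger ratio of covered length than the complex.

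Islands of the complex were of ordinary median length, and few were long. The median was 2800 bp in MT (2000 to 3000) and 2400 bp in WT (1600 to 2600), against 2800 and 2000 bp in the proximal flank and 2400 and 2200 bp over the whole lists. Islands ranged from 400 to 9800 bp in MT and from 200 to 7200 bp in WT. None reached 10 kb, while 4 islands of MT and 3 of WT did so in the proximal flank, the longest with 14600 and 13600 bp. At least 5 kb, a length chosen after the values were seen, was reached by 4 of 71 MT islands (5.63%, 1.56 to 13.8) and 3 of 65 WT islands (4.62%, 0.96 to 12.9). In the proximal flank the shares were 16.8% in MT (9.94 to 25.9) and 11.7% in WT (5.99 to 19.97), and over the whole lists 14.3% and 9.75%. Of the 305 windows, 290 had a larger share of such islands in MT and 275 in WT.

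The longest island of the complex in MT was chr17:35414801-35424600, with 9800 bp, 332 ChIP reads and 174 input reads. The WT island of this region was 3800 bp long, with 113 ChIP reads and 60 input reads. Reads per covered kb were alike, 33.9 in MT and 29.7 in WT, so the gain in MT ChIP reads went with the gain in length. The same held for chr17:34464601-34473600, which was 9000 bp long in MT (284 ChIP and 175 input reads) and 3800 bp in WT (140 and 69). There the density was 31.6 reads per kb in MT and 36.8 in WT. The next longest MT islands were chr17:35522601-35529400 with 6800 bp (4000 bp in WT), chr17:33795601-33800600 with 5000 bp (2400 bp in WT) and chr17:34195401-34200200 with 4800 bp, the same in both lists.

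In WT the longest island was chr17:35628001-35635200, with 7200 bp. In MT, the same stretch was broken into 3 islands of 6400 bp together, while the reads were nearly equal, 229 ChIP and 103 input in MT against 228 and 91 in WT. The other long WT islands were chr17:33730001-33735600 (5600 bp, 4600 bp in MT), chr17:34655201-34660600 (5400 bp, 2 islands of 5000 bp together in MT), chr17:34195401-34200200 (4800 bp) and chr17:34580401-34584400 (4000 bp, 2800 bp in MT). The long islands of WT were thus shorter or split in MT, as those of MT were shorter in WT, except for the island that was equal in both. Each list had been sorted by its own length here, which favours the list used for sorting.

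Over all 47 shared regions, that is regions with an island in both lists, the MT islands were the longer in 25, the WT islands in 15, and 7 were equal. Where each list had exactly 1 island (45 regions), both ends agreed to the base in 6. The MT island contained the WT island in 21, the WT island contained the MT island in 8, and the islands were shifted against each other in 10. Over the whole lists these shares were 6.84%, 41.2%, 23.2% and 28.8%, beside 13.3%, 46.7%, 17.8% and 22.2% in the complex. At chr17:36565601-36568800 the lists had the same ends and the same deposited counts, 151 ChIP and 70 input reads, in both genotypes.

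**Figure D3:**
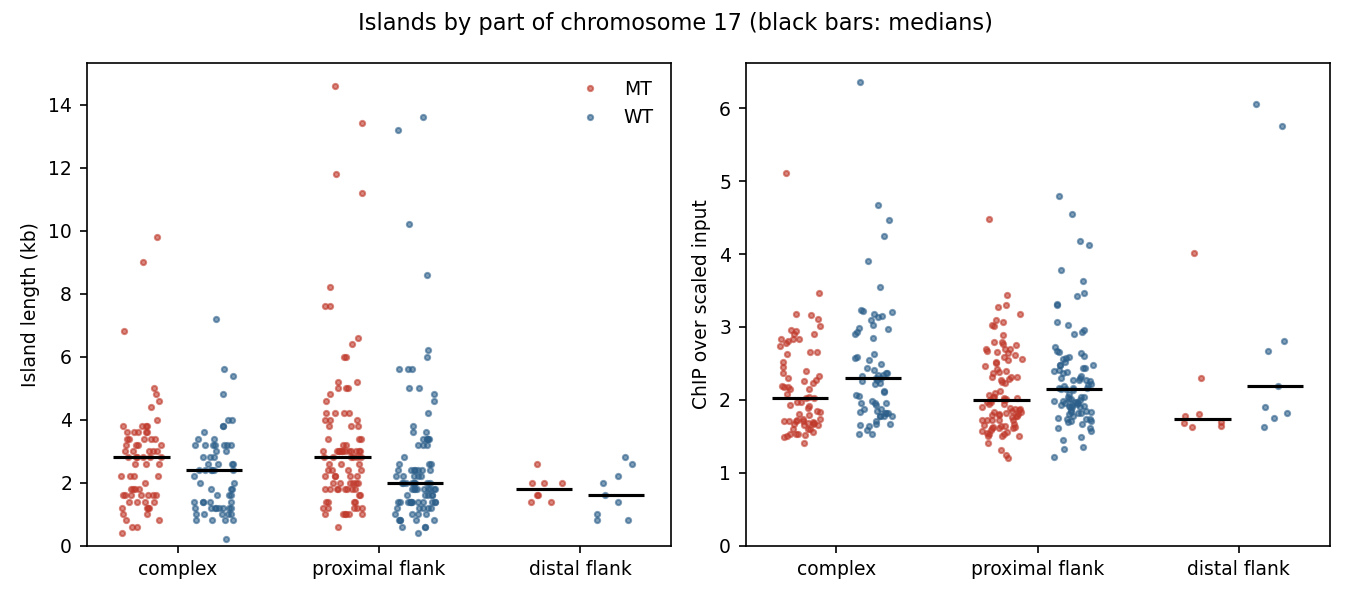
Length in kb (left) and ChIP over scaled input (right) of every island in the complex and both flanks, in MT (red) and WT (blue), 1 library per genotype; each point is an island and each black bar a median. No island of the complex reaches 10 kb, and the highest ChIP over scaled input of the complex is 6.36, in a WT island.

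ChIP over scaled input, which divides the ChIP reads of an island by its input reads at equal library size, was somewhat higher in WT than in MT. Over all islands of the complex, MT had 6784 ChIP and 3124 input reads and a pooled ratio of 2.06 (1.97 to 2.15). WT had 5034 ChIP and 2017 input reads and a pooled ratio of 2.27 (2.15 to 2.39). In the proximal flank the ratios were lower, 1.89 in MT (1.83 to 1.95) and 1.95 in WT (1.88 to 2.02), with intervals below those of the complex. Over the whole lists they were 2.05 and 2.09. These sums run over different sequence in the 2 lists, 195.8 kb in MT and 152.0 kb in WT. At the 47 shared regions alone the MT ratio divided by the WT ratio was 0.911 (0.846 to 0.982), against 0.948 in the proximal flank (0.898 to 1.001) and 0.996 over all shared regions (0.992 to 0.999). Of the 305 windows, 14 had a lower quotient at their shared regions. Island ends still differ between the lists there, and over the 6 regions with the same ends the quotient was 0.930 (0.760 to 1.14), an interval that includes 1. For the MT over WT quotient at all shared regions, the intervals of the complex and the proximal flank overlapped. No interval of the difference between these quotients was computed.

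Single islands differed in the same direction. The median ChIP over scaled input was 2.03 in MT (1.81 to 2.26) and 2.30 in WT (2.05 to 2.43), while over the whole lists it was 2.02 and 2.08. A ratio of at least 3, a level chosen after the values were seen, was reached by 6 MT islands (8.45%, 3.16 to 17.5) and by 14 WT islands (21.5%, 12.3 to 33.5). Over the whole lists 11.6% of MT and 13.8% of WT islands reached it. Among the 6 groups along the complex the WT ratio was the higher in 5, and the group from 34172001 to 34253200 was the exception, with 2.31 in MT (1.98 to 2.71) and 2.17 in WT (1.80 to 2.61).

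The most enriched shared region was chr17:33730001-33735600, 1 of the 5 ranked highest by ChIP over scaled input in both genotypes together. In MT 297 ChIP and 55 input reads fell in it, and in WT 257 and 55, which is 5.11 and 4.25 times the scaled input. Both genotypes together gave 4.67, and the MT value was the highest of all MT islands of the complex, while in WT other shared regions were higher. The next, chr17:35446601-35450000, reached 3.17 in MT (107 ChIP, 32 input reads) and 3.91 in WT (86 and 20). At chr17:34742001-34744400 the values were 2.91 in MT and 3.54 in WT. At chr17:35522601-35529400 they were 2.62 in MT and 4.46 in WT, and at chr17:35878001-35880400 they were 2.95 and 3.24. Only the first and second of these 5 were at 3 or more in both genotypes, and WT was the higher in the last 4.

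At shared regions, ChIP reads per covered kb were close to equal between genotypes once the libraries were scaled. The scaling brings the libraries to equal size, so a general change of H4K16ac over the genome would not show here. The log2 ratio of MT over WT had a median of -0.014 (-0.12 to 0.12) over the 47 regions of the complex, with 21 higher and 26 lower in MT. The median was -0.031 over the 65 shared regions of both flanks and -0.011 over all 14719 shared regions. Pooled over the complex, the ChIP density was 35.9 reads per kb in MT and 34.4 in WT before scaling, and the scaled log2 ratio was -0.0067 (-0.065 to 0.052). Counted per region without dividing by length, MT had more reads in 31 of the 47, with a median log2 ratio of 0.21 (0.028 to 0.51), while over all shared regions this median was 0.16. More reads per region and equal reads per kb are the counterpart of the longer islands in MT.

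With a difference of at least 1.5 times as the mark of a change, 1 region of the complex was higher in MT, where 2.89% of all shared regions were, and 1 was lower, where 4.05% were. Counts of 1 in 47 were near those backgrounds. Both were regions in which one list had a very short island. At chr17:33529601-33531400, MT had 24 ChIP reads in 400 bp and WT 44 in 1800 bp, and the log2 ratio of densities was 1.23 (0.45 to 1.98). At chr17:34773201-34774800, MT had 48 ChIP reads in 1600 bp and WT 21 in 200 bp, with a log2 ratio of -1.87 (-2.64 to -1.06). These are densities over unequal lengths, and reads per region ran the other way in both. Among the 45 regions with at least 600 bp in each list, a length chosen after these 2 were seen, the SD of the log2 ratios was 0.29, against 0.30 in such regions of the whole genome. With the 2 included it was 0.44 against 0.32.

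**Figure D4:**
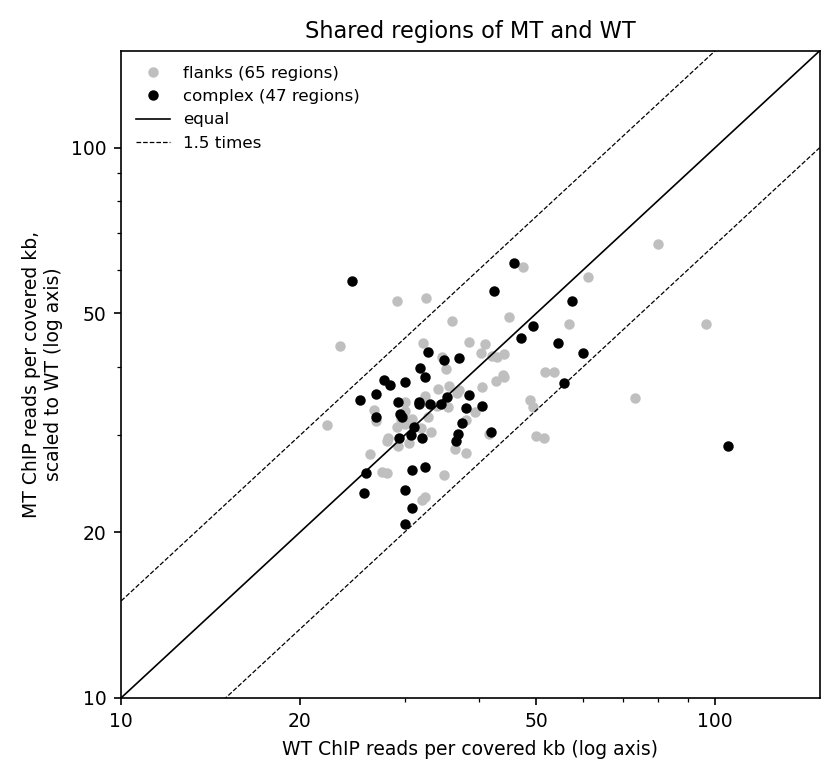
ChIP reads per covered kb in WT (x) and in MT after scaling to WT (y), both on log axes, for 47 shared regions of the complex (black) and 65 of the flanks (grey), 1 library per genotype. Most points lie between the dashed lines at 1.5 times, and 1 region of the complex lies beyond each line.

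Among regions with at least 10 input reads in each genotype, the largest rise in MT was at chr17:34580401-34584400. There MT had 102 ChIP reads in 2800 bp and WT 101 in 4000 bp, so that equal reads on a shorter island gave a log2 ratio of 0.46 (0.052 to 0.87). At chr17:35429001-35432400 both islands were 2200 bp long but shifted, the MT island ending at 35431200 and the WT island starting at 35430201. MT had 87 ChIP reads and WT 61, counted over islands that overlap only in part, and the log2 ratio was 0.45 (-0.042 to 0.94). The strongly enriched region chr17:33730001-33735600 had a log2 ratio of 0.43 (0.18 to 0.67), here with more reads in MT on a shorter island. At chr17:34195401-34200200, with 4800 bp in both lists, MT had 179 and WT 129 ChIP reads, and the log2 ratio was 0.41 (0.072 to 0.74). The region chr17:36443201-36445600 was the last of the 5, with 0.39 (-0.13 to 0.90). Of these 5 regions, the one at 34195401 alone had an interval above 0 and the same ends in both lists.

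The largest fall was at chr17:34742001-34744400, 1 of the most enriched regions, with 86 ChIP reads in 2200 bp in MT and 78 in 1400 bp in WT. Its log2 ratio was -0.58 (-1.04 to -0.12). It was followed by chr17:35584001-35587600 with -0.54 (-1.12 to 0.077), chr17:35729401-35731000 with -0.50 (-0.99 to -0.0075), chr17:33795601-33800600 with -0.48 (-0.91 to -0.035) and chr17:34210201-34211800 with -0.46 (-1.08 to 0.16). In all 5 the MT island was the longer. At chr17:35729401-35731000 the reads themselves were nearly equal, 71 in 1600 bp in MT and 72 in 1200 bp in WT. Over the 47 regions, the counting interval lay above 0 in 5 (10.6%) and below 0 in 4 (8.51%), near the 7.23% and 7.96% of all shared regions.

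In the main setting, the input reads themselves differed between genotypes in the complex. At its shared regions the input density was 16.04 reads per kb in MT (2444 reads) and 13.5 in WT (1614 reads). After scaling to all shared regions of the genome, the log2 ratio was 0.13 (0.036 to 0.22), and input was the higher in MT in 30 of the 47 regions. The interval included 0 with false discovery rates up to 1e-05 (0.097, -0.0055 to 0.20) and at a fold of at least 2 (0.095, -0.047 to 0.24). In the proximal flank the value in the main setting was 0.026 (-0.040 to 0.091). The difference between the complex and both flanks, 0.089, had an interval from -0.023 to 0.20, so it was not detectable in the main setting. With flanks of 10 Mb it was 0.099 (0.0023 to 0.20). Over regions overlapping by 50% of both islands it was 0.17 (0.024 to 0.32). Against the distal flank alone, with 3 shared regions, it was -0.72 (-1.31 to -0.14). Of the 305 windows of the genome, 3 had a larger input ratio, and none of these overlapped the complex. The window that did overlap it had 0.10.

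The lower ChIP over scaled input of MT in the complex thus stood beside a higher input and a ChIP log2 ratio near 0. These are not separate observations, since at shared regions the quotient is the scaled ChIP ratio divided by the scaled input ratio. No single region carried the input value, which ranged from 0.11 to 0.14 when each region was left out in turn. Over the 6 regions with the same ends in both lists, where length plays no part, it was 0.16 (-0.093 to 0.41), with 292 input reads in MT and 240 in WT. By group the value was 0.26 (0.0048 to 0.51) from 33409801 to 33964000 and 0.17 (0.0089 to 0.32) from 35077201 to 35880400, while it was 0.055 (-0.11 to 0.22) from 34464601 to 34872200. It was 0.0087 (-0.31 to 0.33) from 34172001 to 34253200, 0.040 (-0.25 to 0.33) from 36443201 to 36568800, and 0.56 (-0.081 to 1.23) at the lone distal region. At chr17:33429601-33433400, a region chosen after its values were seen, MT had 64 input reads in 3800 bp and WT 21 in 2400 bp, a log2 ratio of 0.82 (0.090 to 1.61). Its interval was the 1 of 47 above 0, and none lay below 0, where 2.13% and 2.19% of all shared regions did, so single regions gave no more such intervals than the genome. The cause of the higher input was not tested, and with 1 mouse each, genotype and mouse cannot be told apart.

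**Figure D5:**
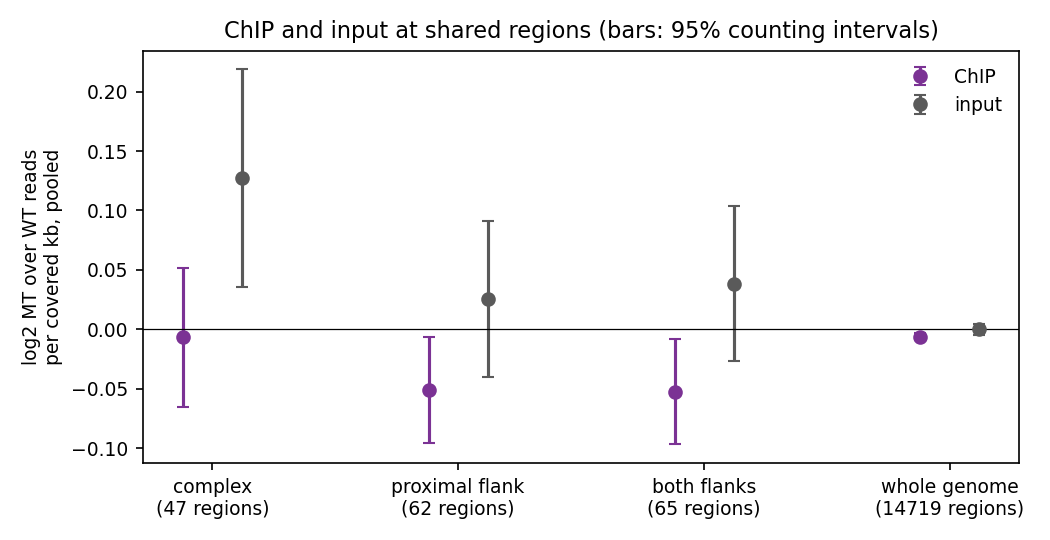
Pooled log2 ratio of MT over WT reads per covered kb for ChIP (purple) and input (grey) at the shared regions of the complex, the proximal flank, both flanks and the whole genome, 1 library per genotype and kind; bars are 95% intervals for counting error. Input in the complex is at 0.13 and ChIP at -0.0067, and input over the whole genome is 0 by the scaling.

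A larger share of islands was common to both lists in the complex than over the whole lists. Of the MT islands, 50 of 71 overlapped a WT island (70.4%, 58.4 to 80.7), and of the WT islands 47 of 65 overlapped a MT island (72.3%, 59.8 to 82.7). The remaining 21 MT islands (29.6%) and 18 WT islands (27.7%) were in 1 list only, where the whole lists had 43.5% and 35.7%. The interval of the MT share, 19.3 to 41.6, lay below the share of its whole list, and that of the WT share, 17.3 to 40.2, included it. The proximal flank had 30.5% and 25.5%, so in this the complex did not stand apart from its dense neighbour. Of the 305 windows, 286 had a larger share of MT islands without a WT island and 237 a larger share of WT islands without a MT island.

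Islands of 1 list were smaller and held fewer reads than the others. In MT their median was 55 ChIP reads, against 92.5 for overlapping islands, and in WT 40 against 78. Their median length was 1600 bp against 2800 bp in MT and 1400 bp against 2400 bp in WT. Within 10 kb of an island of the other list lay 11 of 21 in MT (52.4%) and 10 of 18 in WT (55.6%), close to the 56.7% and 54.7% of all islands of 1 list. Only island positions and counts of the list itself are known, so the reads of the other genotype in these stretches are not known, and absence from a list is not absence of H4K16ac.

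Ranked by the p of the caller, the MT island chr17:33587801-33592200 came first among those without a WT island, with 130 ChIP and 67 input reads in 4400 bp (1.84 times the scaled input). The next were chr17:34490801-34492000 (48 and 16 reads, 2.84 times), chr17:35077201-35078600 (43 and 14 reads, 2.91 times), chr17:34727801-34731200 (88 and 41 reads, 2.03 times) and chr17:34569401-34573000 (103 and 57 reads, 1.71 times). The island at 35077201 stood farthest from any WT island, 196400 bp away. In contrast, those at 34569401 and 34727801 lay 1000 and 1600 bp from one.

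Among WT islands without a MT island, chr17:35642001-35643000 came first, with 35 ChIP and 5 input reads, or 6.36 times the scaled input, the highest ratio in the complex. It rests on 5 input reads, and its interval ran from 2.48 to 20.8. It was followed by chr17:35278401-35281600 (75 and 28 reads, 2.43 times), chr17:34550601-34552000 (45 and 13 reads, 3.15 times), chr17:33517201-33520600 (84 and 36 reads, 2.12 times) and chr17:35519001-35519800 (36 and 11 reads, 2.97 times). The farthest WT island from any MT island was 22000 bp away, so no WT island of the complex lay far from MT islands.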

How the data were processed

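Livers of 1 MT and 1 WT mouse were profiled, with an H4K16ac ChIP library and an input library each. Per the submitters' processing notes, reads were aligned with Bowtie 0.12.7 to mm8 and islands called with SICER 1.03; the list titles give windows of 200 bp, gaps of 400 bp, duplicates removed and a false discovery rate of 0.001. The deposited counts are whole ChIP and input reads per island. The deposited fold is a ratio, in which the authors divided ChIP by input reads at equal library size, and the authors' p-value and false discovery rate rank islands. On 7 chromosomes islands lie past the last gene of GRCm38, so GRCm38 coordinates were not used.

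The members, lists and comparisons were chosen with earlier results of these data known. Library ratios of ChIP to input (1.06 in MT, 1.10 in WT) were recovered from the fold, and MT over WT input (1.09) from input reads per covered kb over 14719 shared regions among 36418 merged regions; together these scaled ChIP by 1.05. A general change of input density is removed by this, and a general change of H4K16ac would not show either. Named islands were the 5 longest of each list, the 5 shared regions highest in ChIP over scaled input, the 5 largest changes each way (both with at least 10 input reads in each genotype), the 5 islands of 1 list with the smallest p in each list and the 3 longest empty stretches. Genome windows had the length of the complex. Computations used scipy 1.17.1, pandas 2.3.3 and numpy 2.4.6 under Python 3.11.15, with plots by matplotlib 3.10.9, were tested on simulated data, and were repeated under 13 alternatives and 4 more added after seeing the data. With 1 library per group no test was run, and islands were merged at an overlap of 1 bp.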

Additional observations from a re-analysis of the deposited data

How the results depend on the processing

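Of 159 values recomputed under alternatives, 117 stayed within the counting interval of the reported value. These include the values under assignment by midpoint, which selected the same islands and left every value unchanged. Island number per Mb over the flanks depended on the flank. In MT it turned below 1 with flanks of 10 Mb (0.83) and with the proximal flank alone (0.81), and was 9.65 with the distal flank alone; in WT these were 0.78, 0.75 and 7.85. Covered share over the flanks moved to 0.70, 0.67 and 14.6 in MT and to 0.68, 0.66 and 10.9 in WT. The nearly empty distal flank, with 8 and 9 islands, is what the main comparison averages in. With the distal flank alone, the input difference between complex and flanks was -0.72 over the 3 shared regions there, median island length 1800 bp (MT) and 1600 bp (WT), ChIP over scaled input 1.999 and 2.40, and the share overlapping the other list 37.5% and 33.3%. ChIP over scaled input in MT was 1.96 in flanks of 10 Mb.

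Selecting islands by enrichment raised ChIP over scaled input by construction. With false discovery rates up to 1e-05 it was 2.23 (MT) and 2.40 (WT) in the complex and 2.03 and 2.09 in the flanks. At a fold of at least 2 it was 2.61 and 2.74 in the complex and 2.53 and 2.54 in the flanks, and the WT share overlapping the other list was 56.1% in the complex and 55.0% in the flanks. With at least 50 ChIP reads that share was 85.7% and 79.5%, and WT median length 2800 bp and 2400 bp. Requiring an overlap of 50% of both islands gave shares of 43.7% (MT) and 47.7% (WT) in the complex and 37.9% in both genotypes in the flanks.

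Scaling ChIP to equal totals over all islands moved the median log2 ratio to -0.31 in the complex and -0.33 in the flanks, together with the median of all shared regions (-0.31), so the complex kept its place relative to the genome. Reads per region gave 0.21 in the complex and 0.28 in the flanks. The window narrowed by 500 kb at both ends moved no value beyond its interval. Assignment by midpoint selected the same islands, since none crossed an edge of the window, and so could not move a value. The input ratio in the complex was between 0.095 and 0.16 under its alternatives, and its interval included 0 with false discovery rates up to 1e-05 (0.097, -0.0055 to 0.20), at a fold of at least 2 (0.095, -0.047 to 0.24) and over regions with the same ends in both lists. The 10-Mb flanks gave a difference in input of 0.099 (0.0023 to 0.20) and regions overlapping by 50% of both gave 0.17 (0.024 to 0.32), both above 0. No paired analysis was possible because each group has 1 library. Single regions hold 21 to 332 ChIP reads, which limits what a change at 1 region can show.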
